A study of Mus musculus with 12 samples.

Results

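The enzymes that write and oxidise DNA methylation were examined across cultured mouse hematopoietic stem cells (HSCs). They are the DNA methyltransferases Dnmt1, Dnmt3a and Dnmt3b and the dioxygenases Tet1, Tet2 and Tet3. They were taken by gene symbol from the deposited expression table, where each had 1 gene ID, so 6 of the 40481 genes in the table were members. RNA had been sequenced from 12 libraries in 4 groups of 3. The cells had been sorted from fetal livers (E14.5 embryos) or from the marrow of mice aged 8 weeks, and were either wild type (WT) or of the genotype labelled ETV6-RUNX1 (iE/R). ETV6-RUNX1 is a fusion of genes for an ETS-family repressor and a RUNX-family transcription factor, known from childhood B-cell leukemia. All 4 groups, WT included, spent 3 days in culture under conditions that expand HSCs, in medium holding 1 µg/mL of doxycycline, so no group without culture or without doxycycline was compared. The promoter that drives the fusion, the sex of the mice and the number of mice per library are not given in the sources used here. P-values therefore measure the spread between these libraries, which may be technical.

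DNA methylation is placed on cytosine, mostly where a cytosine is followed by a guanine (CpG). Dnmt1 copies it onto the new strand after replication, guided by Uhrf1, while Dnmt3a and Dnmt3b set methylation on unmethylated DNA. TET enzymes use oxygen and 2-oxoglutarate to oxidise methylcytosine to hydroxymethylcytosine and further forms, which base excision repair can replace with cytosine. In blood, loss of Dnmt3a or Tet2 is known to raise HSC self-renewal, and both genes are often mutated in clonal hematopoiesis and myeloid leukemia.

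The HSC label was checked against markers. All 10 HSC and progenitor markers had a mean of at least 1 CPM (reads per library, scaled to a common total) in each group, and their summed level was higher in ETV6-RUNX1 in both sources without overlap. It was 1597 to 1961 CPM in WT and 3855 to 3927 CPM in ETV6-RUNX1 fetal liver, and 1768 to 2619 and 2800 to 3109 CPM in bone marrow. B cell markers summed to 0.374 to 1.89 CPM and the 4 T cell markers to 0.557 to 2.29 CPM, with Cd3e listed at 0 in every library. Other marker sums were also higher in ETV6-RUNX1 than in WT fetal liver without overlap. Among them were those of erythroid cells (188 to 247 against 80.6 to 101.4 CPM), granulocytes and monocytes (675 to 869.8 against 423 to 533 CPM) and endothelium (145 to 174 against 70.1 to 96.0 CPM), and in bone marrow these 3 overlapped. The low B cell sums were also higher in ETV6-RUNX1 without overlap, in both sources. Stromal markers went the other way in fetal liver, at 4.37 to 9.97 CPM in WT and 0.862 to 1.22 CPM in ETV6-RUNX1, and overlapped in bone marrow. Liver cell markers summed to 15.1 to 19.4 CPM in fetal liver and 21.2 to 36.8 CPM in bone marrow. Mast cell and basophil markers summed to 5.69 to 12.3 CPM. The 5 megakaryocyte markers summed to 2936 to 4250 CPM in WT fetal liver, 6459 to 7124 in ETV6-RUNX1 fetal liver, 1335 to 1744 in WT bone marrow and 460 to 1896 in ETV6-RUNX1 bone marrow. The part of any of these shifts in the results below was not tested. Library totals were 32.3 to 64.5 M reads. A floor of 3 reads equalled 0.0465 to 0.0928 CPM, far under every member's level; floors cover counting error only. WT bone marrow replicate 1 stood apart: its read counts differed from those of its group mates by a chi-square of 183 and 192 per degree of freedom, against 34.1 to 102 for the other pairs within groups. Where leaving it out changes a member's call or direction, or ends the call of a partner gene named below, the value without it is given beside the result.

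The DNA just before the start sites of 3 members is shown, because CpG-rich start sites are where these enzymes can act and because these are the members with a genotype call in at least 1 source, on the deposited CPM (Tet2) or under another scaling (Tet1 and Dnmt3b). No methylation was measured. Windows of 250 bases were read from the RefSeq promoter table of GRCm38.p6, in which all 6 members were found with 10 start sites. Each is printed 5′ to 3′ on the gene's strand, with every CpG in capitals. The windows are Tet2 at chr3:133544391-133544640 (minus strand), Tet1 at chr10:62887325-62887574 (minus strand) and Dnmt3b at chr2:153649199-153649448 (plus strand). Those of Tet1 and Tet2 lie inside the gene spans given below, which come from another annotation, so their RefSeq starts are not the outermost ones there. Which start is used in these cells was not tested.
Tet2: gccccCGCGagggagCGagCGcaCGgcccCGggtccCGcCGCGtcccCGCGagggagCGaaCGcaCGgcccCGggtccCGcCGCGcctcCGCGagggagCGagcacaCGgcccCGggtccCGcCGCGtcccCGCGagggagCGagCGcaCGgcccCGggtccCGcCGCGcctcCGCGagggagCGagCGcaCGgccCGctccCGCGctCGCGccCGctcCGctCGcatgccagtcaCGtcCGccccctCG
Tet1: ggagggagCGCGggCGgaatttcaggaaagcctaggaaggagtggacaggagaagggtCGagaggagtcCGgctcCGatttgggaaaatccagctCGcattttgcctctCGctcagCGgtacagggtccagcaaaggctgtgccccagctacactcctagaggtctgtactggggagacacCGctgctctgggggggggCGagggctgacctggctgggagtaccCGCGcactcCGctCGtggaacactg
Dnmt3b: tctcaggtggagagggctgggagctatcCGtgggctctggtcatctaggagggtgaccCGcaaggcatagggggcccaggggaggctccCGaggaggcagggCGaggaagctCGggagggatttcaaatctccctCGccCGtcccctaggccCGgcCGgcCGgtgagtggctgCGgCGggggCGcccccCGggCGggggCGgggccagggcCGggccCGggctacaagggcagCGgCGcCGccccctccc
The Tet2 window held 51 CpGs, more than 99.9% of the 32841 windows in the table, whose median was 6. It is built of a repeat: 77.9% of its bases equal the base 42 positions further on. The Tet1 window held 15 CpGs and the Dnmt3b window 21. The core RUNX motif TGTGGT occurred in 0 of the 10 member windows and in 14.0% of all windows. An ETS motif, CCGGAAG, occurred in 0 of 10 and in 6.91%. Both were searched on both strands, in these windows only. A match or its absence says nothing of binding.

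The 6 genes lie on different chromosomes of GRCm38. Dnmt1 (ENSMUSG00000004099) is at chr9:20907209-20959888, Dnmt3a (ENSMUSG00000020661) at chr12:3806007-3914443 and Dnmt3b (ENSMUSG00000027478) at chr2:153649450-153687730. Tet1 (ENSMUSG00000047146) is at chr10:62804570-62908996, Tet2 (ENSMUSG00000040943) at chr3:133463679-133545139 and Tet3 (ENSMUSG00000034832) at chr6:83362373-83459084. Levels of different genes were compared as CPM per kb of exon, since the exons of a gene together span 5.106 kb in Dnmt3b and 16.87 kb in Tet2. On this scale the methyltransferases were above the TET genes in every group. In WT fetal liver Dnmt1 had 30.3 ± 8.75 CPM per kb (SD, n = 3), Dnmt3b 28.0 ± 3.43 and Dnmt3a 10.03 ± 1.27. The TET genes there had 2.43 ± 0.351 (Tet3), 1.54 ± 0.214 (Tet1) and 1.33 ± 0.0762 (Tet2) CPM per kb. In WT bone marrow Dnmt1 had 46.3 ± 18.5 CPM per kb, Dnmt3b 17.3 ± 2.28 and Dnmt3a 5.13 ± 1.05.

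The order Dnmt1, Dnmt3b, Dnmt3a held in all 4 groups by the group means of CPM per kb. The place of Dnmt3b above Dnmt3a depends on the exon length, which is 16.642 kb in Dnmt3a. In CPM, Dnmt3a was above Dnmt3b in each fetal liver library and in each ETV6-RUNX1 bone marrow library. In WT bone marrow the CPM of these genes overlapped. In CPM per kb, the libraries of Dnmt1 and Dnmt3b overlapped in both fetal liver groups and were apart in both bone marrow groups. Among the TET genes the order differed by group. Tet3 was highest in both fetal liver groups, apart from the next gene. In WT bone marrow Tet1, Tet3 and Tet2 followed each other with overlapping libraries. Tet2 had the lowest mean of the 3 in both WT groups, at 1.33 and 1.43 CPM per kb, and its libraries overlapped those of Tet1 in both. In ETV6-RUNX1 bone marrow Tet2 came first, at 2.25 ± 0.527 CPM per kb, overlapping Tet3 at 1.95 ± 0.0785. Tet1 had the lowest mean there, 1.49 ± 0.245, and also overlapped Tet2. In ETV6-RUNX1 fetal liver the order was Tet3 (3.03 ± 0.205), Tet2 (2.46 ± 0.110) and Tet1 (1.61 ± 0.395), with no overlap between neighbours.

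**Figure D1:**
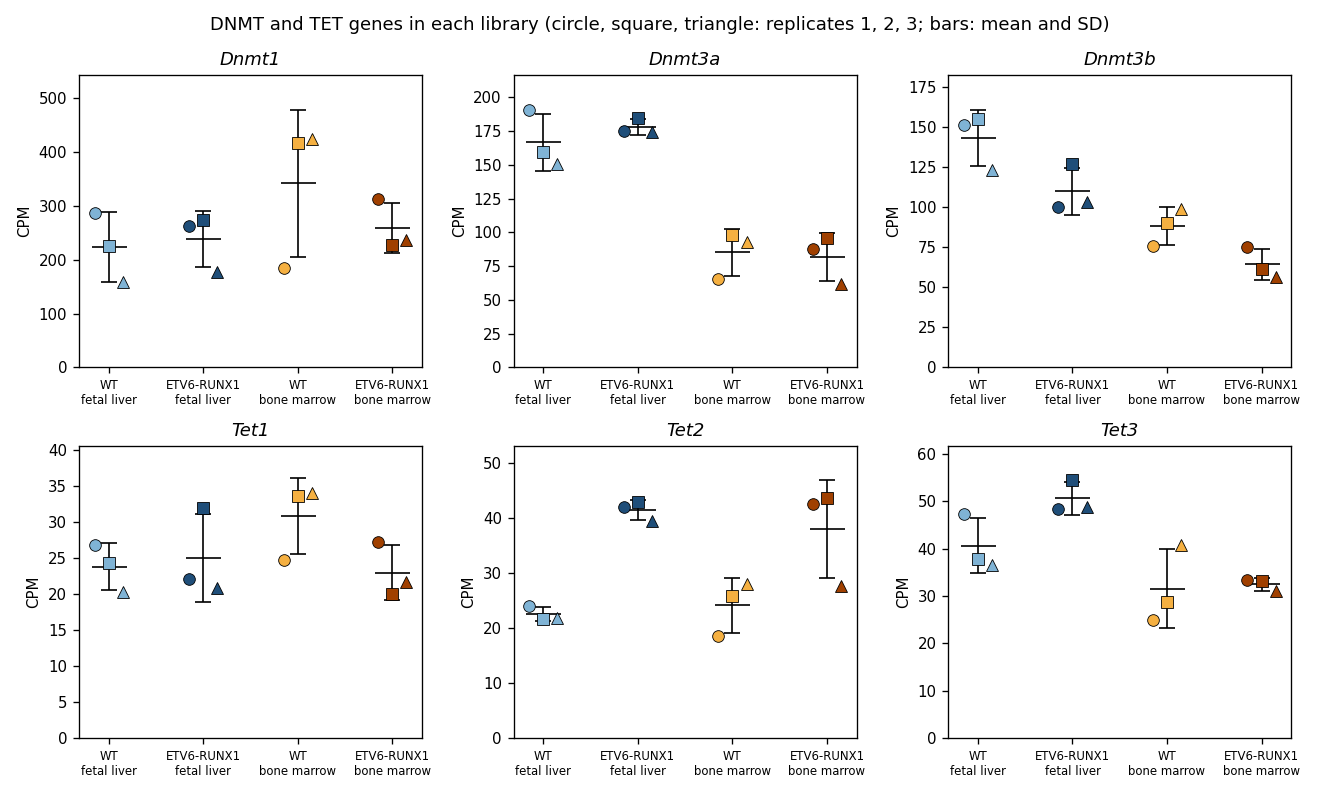
CPM of each of the 6 genes (vertical axes, linear from 0, each with its own range) in the 12 libraries by group; circle, square and triangle are replicates 1, 2 and 3, and bars give mean and SD. Dnmt3a is at 150.4 CPM or more in every fetal liver library and at 97.9 or less in every bone marrow library, and the ETV6-RUNX1 fetal liver libraries of Tet2 sit between 39.3 and 42.9, above the WT ones at 21.7 to 24.0.

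In what follows a call is an adjusted p under 0.05 from limma on log2(CPM + 1), with Benjamini-Hochberg adjustment over the 14271 genes that reached 1 CPM in 3 or more libraries. All 6 members passed that filter. Fold changes are differences on this log2 scale with their standard error.

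Dnmt1, the maintenance enzyme, had no call in any of the 5 comparisons. Its level in replicates 1, 2 and 3 was 288, 225 and 159 CPM in WT fetal liver and 263, 274 and 178 CPM in ETV6-RUNX1 fetal liver. In bone marrow it was 184, 416 and 425 CPM in WT and 313, 227 and 237 CPM in ETV6-RUNX1. The groups overlapped in each comparison, and WT bone marrow was split, with replicate 1 below the lowest ETV6-RUNX1 bone marrow library and the other 2 above the highest. The genotype difference of Dnmt1 was 0.11 ± 0.30 in fetal liver (limma adjusted p = 0.796) and -0.32 ± 0.30 in bone marrow (limma adjusted p = 0.477). Fetal liver minus bone marrow was -0.55 ± 0.30 in WT (adjusted p = 0.263). Without WT bone marrow replicate 1 this became -0.95 with a call (adjusted p = 0.0129). The same omission gave -0.71 (adjusted p = 0.0545) for the genotype difference in bone marrow.

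The Dnmt1 level was also set beside a sign of RNA makeup. Processed pseudogenes, copies of spliced transcripts that can take up reads of other genes, held 1.65%, 2.03% and 2.37% of the reads in WT fetal liver and 1.39%, 1.23% and 1.91% in ETV6-RUNX1 fetal liver. They held 2.23%, 1.60% and 1.69% in WT bone marrow and 2.34%, 2.13% and 2.55% in ETV6-RUNX1 bone marrow. In 3 of the 4 groups the library with the highest share had the lowest Dnmt1. In ETV6-RUNX1 bone marrow the library with the lowest share, replicate 2, had the lowest Dnmt1. How many other genes show such a pattern was not tested. With this share as a covariate, which was added after seeing the data, Dnmt1 in fetal liver minus bone marrow of ETV6-RUNX1 went from -0.13 ± 0.30 (adjusted p = 0.776) to -1.12 (adjusted p = 0.00949). The shares of these 2 groups did not overlap. In the ETV6-RUNX1 source comparison, for any gene, the share and the source therefore cannot be told apart.

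Dnmt1 is a replication-linked gene, so it was set beside 24 S phase genes, a list of replication factors. Of these, 15 fell and 0 rose with ETV6-RUNX1 in fetal liver, with a median difference of -0.66, and 10 fell and 1 rose in bone marrow, with a median of -0.43. Over all genes tested 18.3% fell in fetal liver and 4.93% in bone marrow, and the medians were 0.08 and 0.13. The summed level of the list in replicates 1, 2 and 3 was 4341, 4608 and 3779 CPM in WT fetal liver and 3004, 2780 and 2452 in ETV6-RUNX1 fetal liver, without overlap. Dnmt1 as a percentage of that sum was 6.63, 4.88 and 4.20 in WT fetal liver and 8.75, 9.85 and 7.27 in ETV6-RUNX1 fetal liver, so the ETV6-RUNX1 libraries were all above. Since the sum fell, a gene that kept its level would also gain in this percentage, so the gain is not particular to Dnmt1. In bone marrow it was 4.13, 7.54 and 7.35 in WT and 6.88, 6.73 and 5.77 in ETV6-RUNX1, and the groups overlapped. In bulk RNA, fewer cells in S phase and less of these transcripts per cell cannot be told apart.

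**Figure D2:**
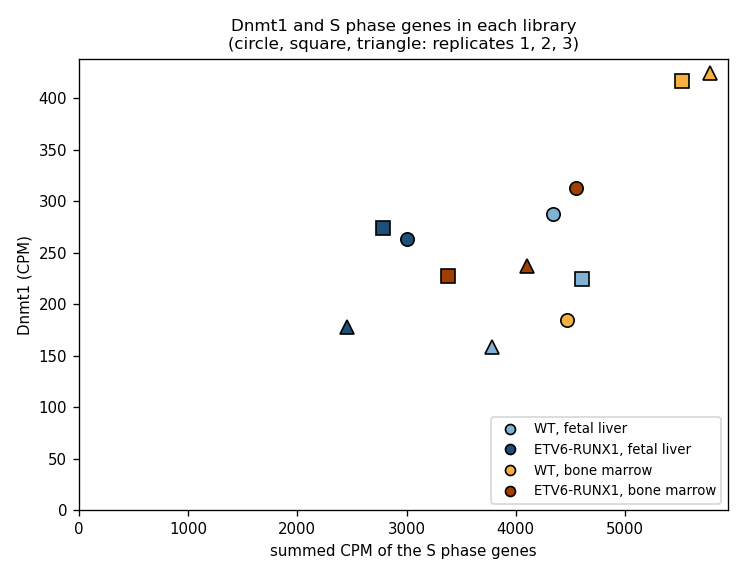
Dnmt1 (vertical axis, CPM) against the summed level of 24 S phase genes (horizontal axis, CPM), 1 point per library, both axes linear from 0. The ETV6-RUNX1 fetal liver libraries lie at 2452 to 3004 CPM of S phase genes, left of the WT fetal liver libraries at 3779 to 4608, while their Dnmt1 levels overlap.

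Dnmt3a, a de novo methyltransferase, was higher in fetal liver than in bone marrow in both genotypes and showed no genotype call. Its level was 191, 159.7 and 150.4 CPM in WT fetal liver and 65.3, 97.9 and 92.8 CPM in WT bone marrow. In the ETV6-RUNX1 libraries it was 175, 185 and 175 CPM in fetal liver and 87.6, 95.6 and 62.0 CPM in bone marrow. Every fetal liver library was above every bone marrow library, while WT and ETV6-RUNX1 overlapped within each source. Fetal liver exceeded bone marrow by 0.97 ± 0.18 on the log2 scale in WT (1.96-fold, limma adjusted p = 0.00264) and by 1.14 ± 0.18 in ETV6-RUNX1 (2.18-fold, limma adjusted p = 0.000336). Both differences kept their call under all 23 alternative settings. These rises include 2 of the 6 members in WT, since Dnmt3b rose too, against 11.1% of all genes called there, and 3 of 6 in ETV6-RUNX1 against 28.6%. Of all genes, 3.38% were called higher in fetal liver in WT and 10.4% in ETV6-RUNX1, and 29.5% and 42.2% had groups that did not overlap. The genotype difference of Dnmt3a was 0.10 ± 0.18 in fetal liver (adjusted p = 0.686) and -0.06 ± 0.18 in bone marrow (adjusted p = 0.832).

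Dnmt3b, the other de novo enzyme, was also higher in fetal liver, and on the deposited CPM it was the member with the lower mean in ETV6-RUNX1 in both sources. Its level was 151, 155 and 123 CPM in WT fetal liver and 100.01, 127 and 103 CPM in ETV6-RUNX1 fetal liver. In bone marrow it was 75.8, 90.1 and 98.9 CPM in WT and 74.9, 61.4 and 56.4 CPM in ETV6-RUNX1. The fetal liver genotypes overlapped by 1 library on each side, and the bone marrow genotypes did not overlap, the closest libraries being 75.8 and 74.9 CPM. Non-overlapping groups in bone marrow were seen for 34.5% of all genes. The source difference was 0.69 ± 0.16 in WT (1.62-fold, limma adjusted p = 0.0096) and 0.77 ± 0.16 in ETV6-RUNX1 (1.71-fold, limma adjusted p = 0.00228). Both calls of Dnmt3b held under 22 of 23 alternatives. With the Y-linked genes as a covariate the WT value was 0.98 without a call (adjusted p = 0.229), and with the pseudogene share as a covariate the ETV6-RUNX1 value was 0.45 without a call (adjusted p = 0.105).

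The genotype difference of Dnmt3b depended on the scaling. On the deposited CPM it was -0.38 ± 0.16 in fetal liver (limma adjusted p = 0.0638) and -0.45 ± 0.16 in bone marrow (limma adjusted p = 0.0551), both without a call. With median-of-ratios scaling it was -0.46 (adjusted p = 0.0158) and -0.61 (adjusted p = 0.00854), with a call in both. Quantile normalization, edgeR and DESeq2 also called it in both sources, with values of -0.42 to -0.48 in fetal liver and -0.56 to -0.61 in bone marrow. On the deposited CPM, leaving out WT bone marrow replicate 1 gave Dnmt3b -0.56 with a call in bone marrow (adjusted p = 0.0339) and an unchanged -0.38 with a call in fetal liver (adjusted p = 0.0429), and leaving out ETV6-RUNX1 replicate 1 gave -0.57 with a call (adjusted p = 0.0416). The deposited CPM carry no scaling between libraries beyond the total. The median of all genes was 0.13 in the bone marrow genotype comparison on CPM and -0.0010 after median-of-ratios scaling, and the share of calls that were higher went from 74.5% to 50.6%. Dnmt3c, the neighbouring mouse copy of Dnmt3b that could share its reads, had means of 0.488 to 1.07 CPM, and how such reads were counted is not given in the sources used here.

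Tet2 was the member with a genotype call: it rose with ETV6-RUNX1 in fetal liver and in bone marrow. Its level in fetal liver was 24.0, 21.7 and 21.9 CPM in WT and 42.0, 42.9 and 39.3 CPM in ETV6-RUNX1. In bone marrow it was 18.5, 25.8 and 28.0 CPM in WT and 42.5, 43.6 and 27.7 CPM in ETV6-RUNX1. The fetal liver genotypes were far apart, whereas ETV6-RUNX1 bone marrow replicate 3 lay just under WT replicate 3. The difference was 0.85 ± 0.19 in fetal liver, 1.84-fold (limma adjusted p = 0.00261), and 0.63 ± 0.19 in bone marrow, 1.58-fold (limma adjusted p = 0.0337). Thus 1 of 6 members was called in each, against 43.1% of all genes in fetal liver and 19.4% in bone marrow. The effects did not pass a test of their difference, which was 0.22 ± 0.27 (limma adjusted p = 0.636). Fetal liver and bone marrow did not differ by call in either genotype, with -0.07 in WT (adjusted p = 0.845) and 0.15 in ETV6-RUNX1 (adjusted p = 0.593).

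The fetal liver rise of Tet2 kept its call under 22 of 23 alternatives. The exception was a covariate of the Y-linked genes, which left 0.18 (adjusted p = 0.809). Ddx3y, a Y-linked gene, was 23.5 to 41.5 CPM in WT and 69.1 to 75.2 CPM in ETV6-RUNX1 fetal liver without overlap, so in this source the Y-linked level and the genotype cannot be told apart. The bone marrow rise kept its call under 12 of 23. It was lost with median-of-ratios scaling (0.47, adjusted p = 0.0661), with edgeR (0.51, adjusted p = 0.0564) and when any of 4 bone marrow libraries was left out. Those were WT replicate 1 (0.45, adjusted p = 0.114), WT replicate 2 (0.69, adjusted p = 0.0521), ETV6-RUNX1 replicate 1 (0.53, adjusted p = 0.119) and ETV6-RUNX1 replicate 2 (0.52, adjusted p = 0.131). An antisense gene, Gm42567, overlaps Tet2 exons in the annotation, and the strand setting of the counting is not given in the sources used here.

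Tet1 had no call in any comparison on the deposited CPM. It was 26.9, 24.3 and 20.3 CPM in WT fetal liver, 22.0, 32.0 and 20.9 in ETV6-RUNX1 fetal liver, 24.7, 33.6 and 34.1 in WT bone marrow and 27.3, 20.1 and 21.6 in ETV6-RUNX1 bone marrow. The groups overlapped in every comparison. The genotype difference was 0.05 ± 0.20 in fetal liver (limma adjusted p = 0.861) and -0.40 ± 0.20 in bone marrow (limma adjusted p = 0.168). With median-of-ratios scaling the bone marrow value of Tet1 was -0.55 and was called (adjusted p = 0.0465), and quantile normalization, edgeR and DESeq2 called it too, with values of -0.56 to -0.63.

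Tet3 was higher in fetal liver than in bone marrow in ETV6-RUNX1 cells. It was 48.4, 54.6 and 48.9 CPM in ETV6-RUNX1 fetal liver and 33.3, 33.2 and 31.0 CPM in ETV6-RUNX1 bone marrow, without overlap. In WT it was 47.4, 37.9 and 36.6 CPM in fetal liver and 24.9, 28.8 and 40.9 CPM in bone marrow, with overlap through replicate 3 of bone marrow. The source difference was 0.62 ± 0.17 in ETV6-RUNX1 (1.56-fold, limma adjusted p = 0.0157) and 0.38 ± 0.17 in WT (limma adjusted p = 0.193). Leaving out WT bone marrow replicate 3 raised the WT value to 0.57 with a call (adjusted p = 0.0437), and leaving out ETV6-RUNX1 fetal liver replicate 2 gave 0.57 in ETV6-RUNX1 without one (adjusted p = 0.0575). With the pseudogene share as a covariate the ETV6-RUNX1 value was 0.27 (adjusted p = 0.378). The genotype difference of Tet3 was 0.32 ± 0.17 in fetal liver (adjusted p = 0.156), where the ETV6-RUNX1 libraries were all above the WT ones, and 0.07 ± 0.17 in bone marrow (adjusted p = 0.805), where it was -0.078 without WT replicate 1. Non-overlapping groups in fetal liver were seen for 55.6% of all genes.

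The difference between the genotype effects in fetal liver and bone marrow was called for 0 of 6 members, against 9.19% of all genes. At an unadjusted p under 0.05 limma also had 0 of 6, and edgeR and DESeq2 called 0 of 6. The values ranged from 0.08 ± 0.22 for Dnmt3b to 0.45 ± 0.28 for Tet1 (limma adjusted p = 0.866 and 0.323). The comparisons share groups: the WT bone marrow libraries, for example, serve both the genotype comparison in bone marrow and the source comparison in WT.

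**Figure D3:**
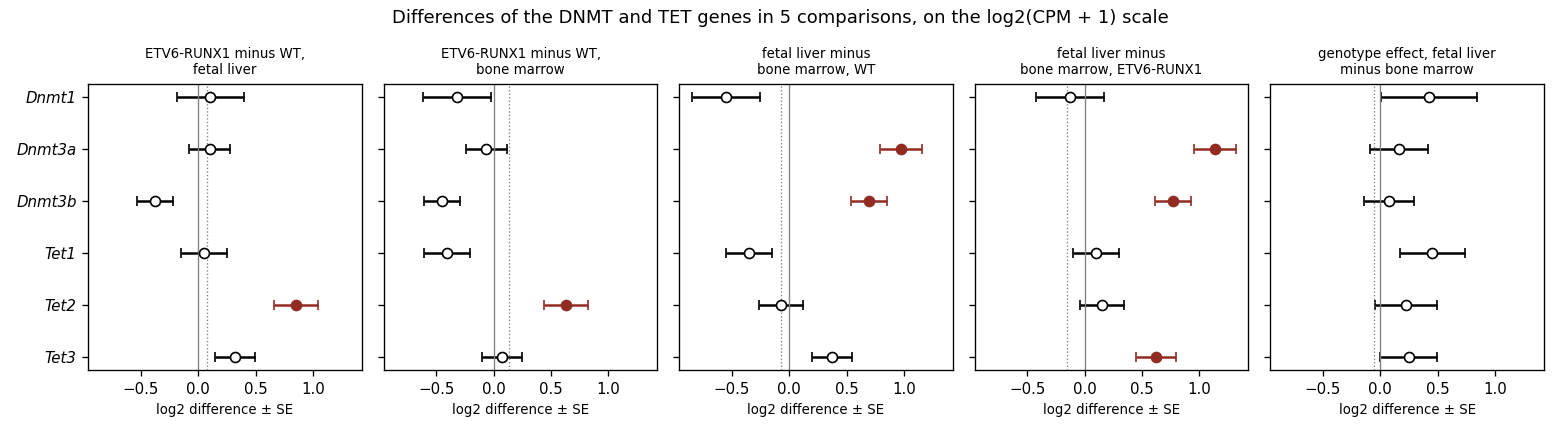
Difference on the log2(CPM + 1) scale (horizontal axis) with its standard error for each of the 6 genes in the 5 comparisons; filled red points have a limma adjusted p under 0.05 and the dotted line is the median of all genes tested. Tet2 is the filled gene in both genotype comparisons, at 0.85 and 0.63, and Dnmt3a and Dnmt3b are filled in both source comparisons.

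The makeup of each family was followed as the percentage that each gene gave of its family's summed CPM per kb, which needs no scaling between libraries. Within the TET family the share of Tet2 went from 25.3 ± 1.64% in WT to 34.7 ± 2.19% in ETV6-RUNX1 fetal liver, and from 26.9 ± 1.14% to 39.2 ± 5.31% in bone marrow (SD, n = 3). The Tet1 share went from 29.0 ± 1.66% to 22.5 ± 3.23% in fetal liver and from 37.7 ± 2.59% to 26.2 ± 3.59% in bone marrow. Shares of a family sum to the whole, so a rise in the Tet2 share lowers the sum of the others. Tet1 itself had means of 1.54 and 1.61 CPM per kb in WT and ETV6-RUNX1 fetal liver. In bone marrow its means were 1.99 in WT and 1.49 in ETV6-RUNX1, with a call under some scalings as given above. What part of the lower Tet1 share comes from Tet2 was not tested. In both sources the genotypes were apart for the shares of Tet1 and Tet2, also for Tet2 in bone marrow, where its CPM overlapped. In bone marrow the Tet2 share was 26.1% to 28.2% in WT and 33.5% to 44.0% in ETV6-RUNX1. The Tet3 share was 45.8 ± 1.51% and 42.8 ± 1.41% in WT and ETV6-RUNX1 fetal liver, and 35.4 ± 3.51% and 34.5 ± 3.12% in bone marrow.

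Within the methyltransferases the share of each gene differed between the sources without overlap in both genotypes. This was not particular to them. Fetal liver minus bone marrow of the Tet3 share was 10.3 points in WT and 8.27 in ETV6-RUNX1, without overlap. That of the Tet1 share was -8.74 points in WT without overlap, and it overlapped in ETV6-RUNX1. The Tet2 share overlapped between sources in both genotypes. Dnmt1 gave 43.8 ± 4.68% in WT fetal liver and 65.8 ± 7.55% in WT bone marrow, and 49.7 ± 5.18% and 66.6 ± 2.80% in ETV6-RUNX1. Dnmt3b gave 41.4 ± 3.83% in WT fetal liver, 33.5 ± 3.54% in ETV6-RUNX1 fetal liver, 26.5 ± 6.47% in WT bone marrow and 24.0 ± 0.698% in ETV6-RUNX1 bone marrow. The genotypes were apart for the Dnmt3b share in fetal liver and overlapped in bone marrow. WT bone marrow replicate 1 had 33.9% and the other WT libraries 22.1% and 23.5%, so without it ETV6-RUNX1 minus WT turned from -2.53 to 1.18 points. Dnmt3a gave 14.8 ± 1.53% and 16.8 ± 2.08% in fetal liver and 7.69 ± 1.14% and 9.41 ± 2.11% in bone marrow (WT first). The size of these source differences depends on the exon length. Without division by it, fetal liver minus bone marrow for Dnmt3a goes from 7.13 to 14.46 points in WT and from 7.36 to 13.9 in ETV6-RUNX1. For Dnmt3b it goes from 14.9 to 9.01 points and from 9.58 to 5.08. Each non-overlapping pair had a two-sided exact permutation p of 0.1, the smallest that 3 libraries against 3 allow, and an adjusted p of 0.160 over the 24 share comparisons, so none could pass the threshold.

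**Figure D4:**
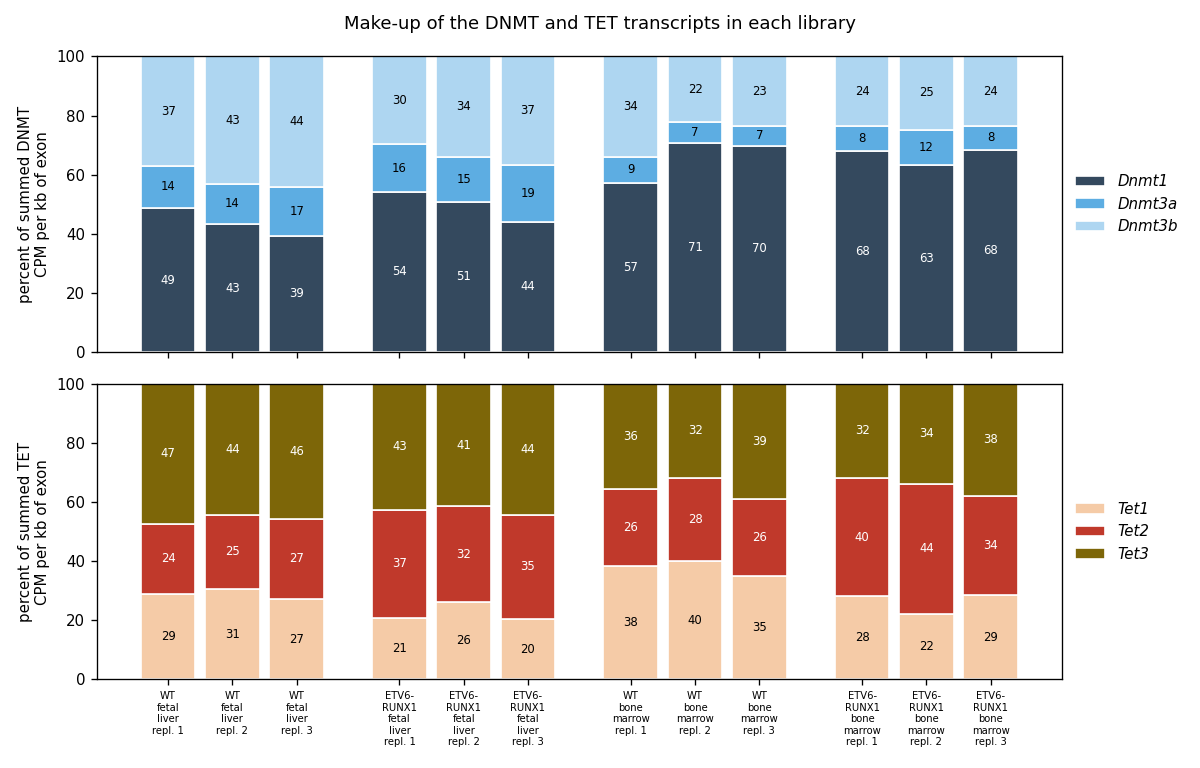
Percentage of the summed CPM per kb of the DNMT family (upper panel) and of the TET family (lower panel) that each gene gave, 1 bar per library. The Tet2 segment is 23.7% to 27.0% in WT and 32.3% to 36.5% in ETV6-RUNX1 fetal liver, and the Dnmt1 segment is larger in every bone marrow library than in any fetal liver library.

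The pathway around the enzymes was followed in a list of 46 partner genes in 6 functional groups. Of these, 42 were tested, and Dnmt3l, Cxxc4, Wt1 and Neil2 were under the filter. With ETV6-RUNX1, 7 rose and 8 fell in fetal liver, and 5 rose and 6 fell in bone marrow. That is 35.7% and 26.2% of those tested, against 43.1% and 19.4% of all genes (24.8% and 14.4% rose, 18.3% and 4.93% fell), with medians of 0.04 and 0.05 against 0.08 and 0.13. In bone marrow 10 fell with median-of-ratios scaling or edgeR and 12 with DESeq2. With the Y-linked covariate 1 rose (Zbtb4) and 1 fell (Ahcy) in fetal liver, so each other fetal liver call below was lost under it. Genes were named by a rule, up to 2 called genes per functional group and comparison with the largest difference; other called genes are named as well, chosen after their values were seen.

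Among partners of maintenance methylation, Cdca7, an activator of the remodeler Hells, fell from a mean of 263 to 115 CPM in fetal liver (-1.19 ± 0.17, limma adjusted p = 8.0e-05) and from 371 to 209 CPM in bone marrow (-0.85 ± 0.17, limma adjusted p = 0.0043). Pcna, the replication clamp to which Dnmt1 binds, fell by 0.90 in fetal liver and by 0.62 in bone marrow on the log2 scale. Outside the rule, the ligase Lig1 fell by 0.45 and the Uhrf1 homolog Uhrf2 rose by 0.41, both in fetal liver, with calls that held under 15 of 23 alternatives each. Uhrf2 lost its call with quantile normalization (0.25, adjusted p = 0.139) and edgeR (0.32, adjusted p = 0.0565), and Lig1 when any of 5 fetal liver libraries was left out. Uhrf1, which brings Dnmt1 to replicated DNA and is named here for that role after its values were seen, had no call: it was 244 and 198 CPM in fetal liver and 288 and 214 CPM in bone marrow (WT first), with limma adjusted p values of 0.184 and 0.0969. Among partners of de novo methylation, the histone methyltransferase Setd2 rose in fetal liver from 36.8 to 60.4 CPM (0.71 ± 0.20, adjusted p = 0.0109, held under 19 of 23 alternatives) and none was called in bone marrow.

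Among partners of the TET enzymes, Ogt, the sugar transferase that binds Tet2 and Tet3, rose in fetal liver from 125 to 272 CPM (1.12 ± 0.18, limma adjusted p = 0.000175). In bone marrow it was 201 CPM in WT and 216 CPM in ETV6-RUNX1 (0.09 ± 0.18, adjusted p = 0.740), and the effects differed by 1.03 ± 0.25 (limma adjusted p = 0.0196). Ogt is X-linked, and with the Y-linked covariate its fetal liver value was 0.63 (adjusted p = 0.251). Cxxc5, a CXXC-domain protein that can bind Tet2, rose in both sources, from 39.7 to 58.3 CPM in fetal liver (0.54 ± 0.14, adjusted p = 0.00562) and from 35.4 to 60.5 CPM in bone marrow (0.75 ± 0.14, adjusted p = 0.00247).

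Base removal genes moved in both directions. Gadd45g, a stress protein linked to demethylation, rose from 23.7 to 89.8 CPM in fetal liver (1.86 ± 0.25) and from 16.8 to 37.1 CPM in bone marrow (1.06 ± 0.25). Apex1, the endonuclease that cuts abasic sites, fell from 80.0 to 28.2 CPM in fetal liver (-1.47 ± 0.17) and from 66.8 to 45.3 CPM in bone marrow (-0.52 ± 0.17, limma adjusted p = 0.0445). The bone marrow call of Apex1 held under 9 of 23 alternatives and was lost without WT replicate 1 (-0.32, adjusted p = 0.152). Pip4p1 overlaps its exons on the other strand at a mean of 9.66 CPM. Xrcc1, the scaffold of single-strand break repair, fell in fetal liver from 56.2 to 37.8 CPM (-0.57 ± 0.14) and rose in bone marrow from 46.2 to 66.2 CPM (0.52 ± 0.14). The bone marrow call of Xrcc1 held under 18 of 23 alternatives. It was lost with median-of-ratios scaling (0.36, adjusted p = 0.0656), edgeR (0.37, adjusted p = 0.0636), only the 6 libraries compared (adjusted p = 0.0618), without WT replicate 1 (0.41, adjusted p = 0.0564) and without ETV6-RUNX1 replicate 2 (0.50, adjusted p = 0.0576). The difference of -1.08 ± 0.19 between the effects in the 2 sources was called (limma adjusted p = 0.0033) and kept its call under all 22 alternatives. Outside the rule, Tdg, the glycosylase that removes oxidised methylcytosine, fell in fetal liver from 32.6 to 20.9 CPM (-0.62), and Gadd45a rose from 2.02 to 6.43 CPM (1.19).

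Among readers of methylation, Zbtb4, a zinc finger protein that binds methylated DNA, rose from 2.64 to 12.1 CPM in fetal liver (1.83 ± 0.22) and from 7.38 to 16.1 CPM in bone marrow (1.06 ± 0.22). Mbd3, a subunit of the NuRD complex, rose in bone marrow from 18.2 to 34.3 CPM (0.86 ± 0.20) and was 27.8 and 23.6 CPM in fetal liver without a call. Among enzymes of the methyl donor and of 2-oxoglutarate, Ahcy, which clears the methylation by-product S-adenosylhomocysteine, fell from 179 to 66.2 CPM in fetal liver (-1.43 ± 0.14) and from 165 to 95.9 CPM in bone marrow (-0.78 ± 0.14). Mat2a, which makes S-adenosylmethionine, fell by 0.38 in fetal liver and, outside the rule, by 0.47 in bone marrow. Its calls held under 18 and 17 of 23 alternatives. Idh1, which makes 2-oxoglutarate, fell in bone marrow from 157 to 99.3 CPM (-0.66 ± 0.14).

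Between sources, 0 partners were higher and 5 lower in WT fetal liver than in WT bone marrow, and 2 were higher and 9 lower in ETV6-RUNX1, with a median of -0.24 in each. Without WT bone marrow replicate 1 the 5 became 12. Without WT fetal liver replicate 3 or WT bone marrow replicate 3 they became 2, and without WT bone marrow replicate 2 they became 3. With median-of-ratios scaling, edgeR or DESeq2 the 9 became 5. Over all genes 7.77% and 18.2% were called lower and 3.38% and 10.4% higher (WT first), with medians of -0.07 and -0.16. Of the 24 S phase genes, 1 was lower and 0 were higher in WT fetal liver, with a median of -0.22. In ETV6-RUNX1 fetal liver 11 of them were lower and 0 higher, with a median of -0.47. The part of S phase genes in the partner differences was not tested. Nsd2, a histone methyltransferase that makes the mark read by Dnmt3a, was lower in fetal liver in both genotypes, at 44.8 against 72.5 CPM in WT (-0.68 ± 0.16) and 48.8 against 83.1 CPM in ETV6-RUNX1 (-0.75 ± 0.16). Nelfa overlaps Nsd2 exons on the other strand at a mean of 103 CPM, so reads of the pair may not be told apart. Cdca7l, a relative of Cdca7, was lower by 0.94 in WT and by 0.68 in ETV6-RUNX1 fetal liver, as log2 differences. The other 3 in WT were Ogt (-0.69), Zbtb4 (-1.17) and Mat2b (-0.38), whose call held under 11 of 23 alternatives. In ETV6-RUNX1 Gadd45g (1.29) and, outside the rule, Idh1 (0.52) were higher. Cdca7 (-0.84), Xrcc1 (-0.80) and Ahcy (-0.53) were lower, as were, outside the rule, Pcna (-0.56), Lig1 (-0.45) and Apex1 (-0.66). Ahcy, Pcna, Lig1 and Apex1 lost these calls with median-of-ratios scaling, edgeR and DESeq2, and Lig1 kept its call under 12 of 23 alternatives.

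**Figure D5:**
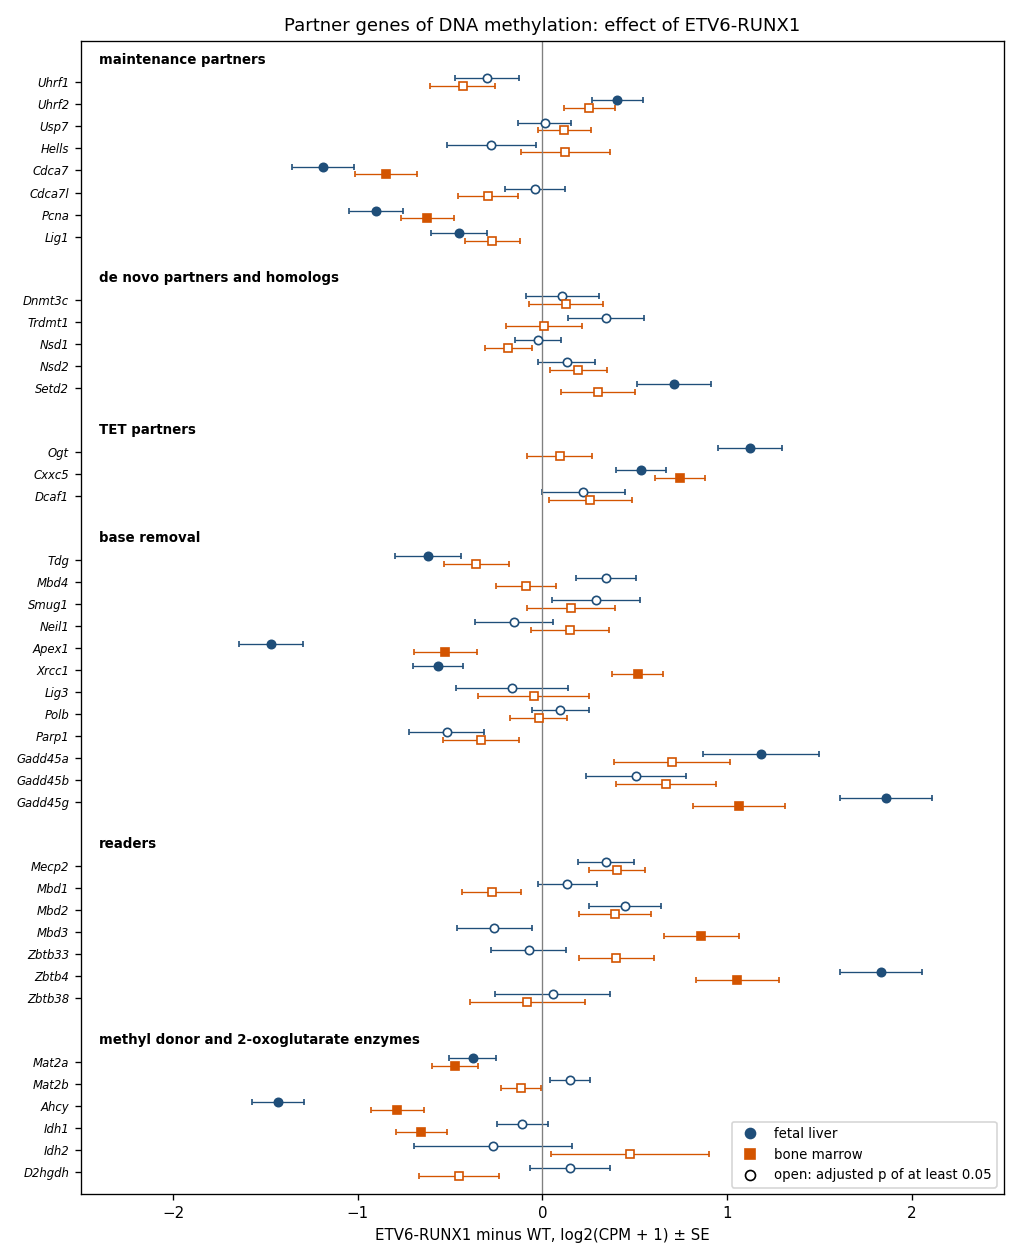
Difference between ETV6-RUNX1 and WT on the log2(CPM + 1) scale (horizontal axis) with its standard error for 41 of the partner genes tested, by functional group, in fetal liver (circles) and in bone marrow (squares); filled points have a limma adjusted p under 0.05. Zbtb4 at 1.83 and Gadd45g at 1.86 lie farthest to the right in fetal liver, and Apex1 at -1.47 and Ahcy at -1.43 farthest to the left.

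The genes whose pattern over the 12 libraries was most like that of each member were taken by Pearson's r of log2(CPM + 1) among 9559 genes, as a description. The libraries fall in 4 groups and differ in depth, so differences between groups enter r. For Dnmt1 they were Nedd4 (r = 0.974), Copg1 (0.972) and Sun1 (0.972). For Dnmt3a they were Anxa3 (0.974), Cnn3 (0.964) and Samd14 (0.954), and for Dnmt3b Flt3 (0.943), Tgs1 (0.931) and Ubash3a (0.919). For Tet1 they were Prpf6 (0.945), Pidd1 (0.938) and Gzf1 (0.931), for Tet2 Stk38 (0.973), Syvn1 (0.972) and Relch (0.972), and for Tet3 Mob1b (0.958), Dgkd (0.938) and Pip4k2a (0.937). With median-of-ratios scaling these genes had r of 0.895 to 0.979 with their member. Anxa3 and Prpf6 remained first for Dnmt3a and Tet1 after that scaling, and for the other 4 members another gene came first.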

How the data were processed

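The authors deposited 1 table of CPM (reads scaled to a common library total) per gene for 12 libraries, made with a stranded total RNA kit and sequenced as read pairs, per the labels' protocols. The submitters' processing notes name STAR 2.5.1a, Subread, featureCounts 1.4.6-p5, Salmon 0.8.2, edgeR, limma and GRCm38, with no role given; the annotation release and the strand setting are not given in the sources used here. All values were whole multiples of 1 read (100% within 0.01 read), so reads and totals were recovered. Of 40757 rows, 276 repeated a gene ID and were dropped. Exon lengths and positions came from GENCODE M21, which held 99.4% of the IDs, and promoter windows from RefSeq.

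Groups came from the sample titles and genotype labels. The main test was limma 3.58.1 (lmFit, eBayes with trend, two-sided) on log2(CPM + 1), with 4 groups of 3 libraries and 8 residual degrees of freedom, run in R 4.3.3 and tested on simulated data. It gave 5 comparisons: genotype in each source, their difference, and source in each genotype. Family shares were compared with exact permutation tests. All 6 members are named; partner genes are named as up to 2 called genes with the largest difference per functional group and comparison, and likeness as the 3 genes with the highest correlation. The result of 1 partner gene is not reported here, and the gene stays in the counts. The members and lists were chosen with earlier results of these data known.

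Alternatives were a pseudocount of 0.1, no filter (29278 genes), a stricter filter on means of 5 CPM or more (10648 genes), quantile normalization, median-of-ratios scaling, a replicate block, edgeR 4.0.16 (TMM) and DESeq2 1.42.0 on recovered reads, only the 6 libraries compared, a Y-linked covariate and leaving out each library. A covariate of the processed pseudogene share was added after seeing the data. On recovered reads edgeR called 6178 genes in the fetal liver genotype comparison and limma 6151.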

Additional observations from a re-analysis of the deposited data

Results flagged for a closer look

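For 4 partner genes the genotype effect in fetal liver differed from that in bone marrow by limma's test of the difference itself. The values are fetal liver minus bone marrow on the log2 scale. For Ogt the difference was 1.03 (adjusted p = 0.0196), and it kept its call under 16 of 22 alternatives. For Apex1 it was -0.94 (adjusted p = 0.0259), with a call under 10 of 22. For Xrcc1 it was -1.08 (adjusted p = 0.0033), with a call under all 22. Xrcc1 fell in fetal liver and rose in bone marrow on the deposited CPM, but the bone marrow call held under 18 of 23 alternatives, and with median-of-ratios scaling the value there was 0.36 without a call (adjusted p = 0.0656). For Mbd3 it was -1.12 (adjusted p = 0.0253), with a call under 13 of 22. With the Y-linked covariate the difference was 0.67 for Ogt, -0.55 for Apex1 and -1.26 for Mbd3, all without a call.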

How the results depend on the processing

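The source differences of Dnmt3a were called under all 23 alternatives in both genotypes. Those of Dnmt3b in both genotypes and the fetal liver rise of Tet2 were called under 22. The alternatives are not independent, and some can change only the adjusted p. A pseudocount of 0.1 and a filter on a mean of at least 5 CPM changed no call or direction of the members. Depth limits none of the members, and 3 libraries per group limit the precision. The fit of only 6 libraries gives no value for the difference between the genotype effects. The cause of each change below was not tested.

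For the genotype difference in fetal liver, Tet1 changed sign with median-of-ratios scaling (-0.024), quantile normalization (-0.20), edgeR (-0.026), DESeq2 (-0.00081), the Y-linked covariate (-0.28) and the pseudogene covariate (-0.23). Dnmt1 changed sign with the Y-linked (-0.68) and the pseudogene covariate (-0.50). Dnmt3a did so with edgeR (-0.0029) and with those covariates (-0.60 and -0.20). Tet3 did so with the Y-linked covariate (-0.17), which also ended the call of Tet2 (0.18) and left 0 members higher, 1 partner higher and 1 lower. Dnmt3b gained a call, so that 1 member was lower, with median-of-ratios scaling (-0.46), quantile normalization (-0.42), edgeR (-0.48), DESeq2 (-0.45), only the 6 libraries compared (-0.38) and the pseudogene covariate (-0.58).

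For the genotype difference in bone marrow, the call of Tet2 was lost, leaving 0 members higher, with median-of-ratios scaling (0.47), quantile normalization (0.44), edgeR (0.51), the Y-linked covariate (0.44), and, at an unchanged 0.63, without the filter on low values, with only the 6 libraries compared and with the replicate number as a block. Dnmt3b and Tet1 gained calls, so that 2 members were lower, with median-of-ratios scaling (-0.61 and -0.55), quantile normalization (-0.56 and -0.63), edgeR (-0.61 and -0.57) and DESeq2 (-0.60 and -0.56). Tet3 changed sign with these settings (-0.081, -0.13, -0.10 and -0.092) and with the Y-linked covariate (-0.063). With the pseudogene covariate Dnmt1 (0.28) and Dnmt3a (0.23) changed sign and 9 partners were higher. Partners lower were 10 with median-of-ratios scaling, 10 with edgeR and 12 with DESeq2.

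For the difference between the genotype effects, which had no member call, the Y-linked covariate reversed Dnmt1 (-0.15), Dnmt3a (-0.35), Dnmt3b (-0.091), Tet2 (-0.27) and Tet3 (-0.10). The pseudogene covariate reversed Dnmt1 (-0.78), Dnmt3a (-0.43), Dnmt3b (-0.32), Tet1 (-0.10), Tet2 (-0.29) and Tet3 (-0.18). With either covariate, and without the filter, 0 partners were higher and 1 lower, and 2 were higher with median-of-ratios scaling and 3 with DESeq2.

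For the source difference in WT, Tet2 changed sign with median-of-ratios scaling (0.020), quantile normalization (0.055), edgeR (0.018), DESeq2 (0.011), the Y-linked covariate (0.78) and the pseudogene covariate (0.016). The Y-linked covariate reversed Dnmt1 (0.44) and Tet1 (0.072), ended the call of Dnmt3b (0.98), and left 1 member higher and 0 partners lower. Partners higher were 3 with DESeq2 and 1 with median-of-ratios scaling, quantile normalization, edgeR, only the 6 libraries compared or the pseudogene covariate. For the source difference in ETV6-RUNX1, Dnmt1 changed sign with median-of-ratios scaling (0.046), edgeR (0.047), DESeq2 (0.054) and the Y-linked covariate (0.30). The pseudogene covariate gave Dnmt1 a call (-1.12), reversed Tet1 (-0.36) and Tet2 (-0.27) and ended the calls of Dnmt3b (0.45) and Tet3 (0.27), leaving 1 member higher, 1 lower and 1 partner higher. In this comparison the pseudogene share and the source cannot be told apart. Partners lower were 5 with median-of-ratios scaling, edgeR and DESeq2.

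Leaving out each library in turn gave these ranges where a call or a direction changed. For the genotype difference in fetal liver they were -0.12 to 0.31 (Dnmt1), -0.48 to -0.32 (Dnmt3b), -0.14 to 0.16 (Tet1) and 0 to 1 members lower. In bone marrow they were -0.24 to 0.12 (Dnmt3a), -0.57 to -0.37 (Dnmt3b), 0.45 to 0.83 (Tet2), -0.078 to 0.27 (Tet3), 0 to 1 members higher, 0 to 1 lower and 3 to 6 partners higher. For the difference between the effects they were -0.022 to 0.34 (Dnmt3a), -0.030 to 0.19 (Dnmt3b), 0 to 2 partners higher and 1 to 4 lower. For the source difference in WT they were -0.95 to -0.33 (Dnmt1), -0.25 to 0.040 (Tet2), 0.23 to 0.57 (Tet3), 0 to 1 members lower, 0 to 1 partners higher and 2 to 12 lower, the 12 without bone marrow replicate 1. In ETV6-RUNX1 they were -0.24 to 0.066 (Dnmt1), -0.084 to 0.23 (Tet1), -0.056 to 0.26 (Tet2), 0.57 to 0.65 (Tet3) and 1 to 2 partners higher.

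The replicate numbers gave no sign of a pairing of the libraries: deviations of same-numbered libraries correlated at -0.442 to 0.390, above 0.1 in 7 of 18 pairs. Those of differently numbered libraries correlated at -0.495 to 0.656, above 0.1 in 14 of 36 pairs. Such correlations cannot show that no pairing existed. With the replicate block 0 members were higher in bone marrow instead of 1, since Tet2 had an adjusted p of 0.0525 there, and no other member call changed. If exon length is not divided out, the source difference of the Dnmt3a share becomes 14.46 points in WT and 13.9 in ETV6-RUNX1 and that of the Dnmt3b share 9.01 and 5.08.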
